A study of Mus musculus with 6 samples.

Results

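Cathepsins, the proton pump that acidifies lysosomes (the V-ATPase), the LAMP membrane proteins and the transcription factor Tfeb were followed after 1 h with adenine in BV2, a mouse microglial cell line made to grow indefinitely. Members were chosen by gene symbol: every cathepsin named by a single letter (CTS plus 1 letter), every symbol that starts with ATP6V, and Lamp1, Lamp2 and Tfeb. These symbols gave 42 probes, and the Tfeb probe, which the platform annotation lists under its older symbol Tcfeb, made 43 probes for 40 genes, of 26423 probes and 17742 named genes on the array. They were 19 probes for 17 cathepsin genes, 8 probes for 8 genes of the membrane sector of the pump (V0), 13 probes for 12 genes of its cytosolic sector (V1), 2 LAMP probes and 1 Tfeb probe. Of the 43 probes, 30 lay above the median probe of the array and 13 at or below it.

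The groups were untreated control cells, cells given a lower adenine dose and cells given a higher dose, with 2 single-colour arrays each. Sample titles put the doses at 20 and 80 µM, whereas the sample characteristics put them at 80 and 250 µM, so only their order is used. The model is 1 cell line, and separate cultures are described for control and treated cells without saying which array came from which, so p-values measure the spread between arrays, which may be technical. Median deposited intensity was 125 to 170 units per array. Of genes that mark microglia and macrophages, 11 of 12 measured lay above the median probe, against 15 of 35 markers of other cells (neurons, astrocytes, oligodendrocytes, lymphocytes, endothelium and fibroblasts). Over probes above the median, r was 0.9894 between the higher-dose arrays and 0.9287 to 0.9406 between them and the remaining 4.

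Lysosomes are the acidic compartments in which cells break down proteins, lipids and engulfed material, and microglia, as phagocytes, are rich in them. The V-ATPase hydrolyses ATP in V1 and uses the rotation that follows to drive protons through V0, and the cathepsins are proteases, most of which work at the low pH so made. LAMP1 and LAMP2 are heavily glycosylated proteins of the lysosomal membrane. TFEB binds a palindromic DNA element in the promoters of many lysosomal genes, the CLEAR element, and is itself controlled largely by its phosphorylation and its place in the cell rather than by its mRNA level.

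Because the members are known for this element, their promoters were searched for it in RefSeq sequences of build GRCm38.p6 that run from 250 bases before to 50 bases after each annotated start. The table held an entry for 30 of the 40 genes. The core letters CACGTG, a palindrome and so equal on both strands, were present in 9 of these 30 genes (30%), and in 8.09% of 27025 genes with an entry. The 8-letter form TCACGTGA, which contains the core, was present in 5 of 30 (16.7%), against 1.12% of all genes, and the 10-letter CLEAR palindrome, which is that form with 1 more letter at each end, in 0 of 30 against 0.37%. A match describes the letters and is not a measured binding site. Stretches of 80 bases from 6 of the 9 genes are shown because they hold the core letters, in capitals. Of these 6 genes, Atp6v0b passed the test described below and the other 5 did not. Each is given 5′ to 3′ on the gene's own strand, and all 6 end before the annotated start.
Atp6v0b, chr4:117887330-117887409, minus strand: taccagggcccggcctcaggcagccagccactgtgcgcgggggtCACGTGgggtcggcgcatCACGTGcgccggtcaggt
Lamp1, chr8:13159081-13159160, plus strand: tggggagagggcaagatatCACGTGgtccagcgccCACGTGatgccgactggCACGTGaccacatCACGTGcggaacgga
Ctsd, chr7:142387888-142387967, minus strand: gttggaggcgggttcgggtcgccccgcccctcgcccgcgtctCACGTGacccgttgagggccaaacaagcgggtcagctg
Atp6v1a, chr16:44139350-44139429, minus strand: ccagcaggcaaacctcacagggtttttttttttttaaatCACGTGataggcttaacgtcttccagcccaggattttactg
Ctsa, chr2:164833693-164833772, plus strand: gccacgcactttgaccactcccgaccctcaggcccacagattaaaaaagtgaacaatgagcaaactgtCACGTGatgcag
Ctsf, chr19:4855045-4855124, plus strand: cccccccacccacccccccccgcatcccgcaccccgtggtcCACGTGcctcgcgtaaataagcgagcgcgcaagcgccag
The Atp6v0b stretch holds the core 2 times and the Lamp1 stretch 4 times. The other 3 genes with the core are Atp6v0d1, Atp6v0e and Ctsl.

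At the higher dose, 3 of the 43 probes rose and 1 fell against control. Atp6v0b and Atp6v0e, small subunits of the proton-conducting V0 sector, and Atp6v1e1, part of the stalk that holds V1 in place, rose 1.75-fold to 2.43-fold. Ctsr, a cathepsin known from rodent placenta, fell on a probe of low intensity. These 4 are 9.3% of the members, and 10.6% of all 26423 probes passed the same test (5.55% higher and 5.06% lower), so the share was close to that of the array as a whole. Among the 30 brighter members, 3 passed, or 10%, against 17% of the brighter probes. At an unadjusted p under 0.05 there were 17 members, or 39.5%, against 29.1% of all probes. Both higher-dose arrays lay above both controls for 18 members and below them for 12, together 30 of 43, where 28.9% of all probes were above and 31.4% below, together 60.3%. The members' median log2 change was 0.19, against −0.01 over all probes. Among the 30 brighter members it was 0.21, against −0.05 over the 13211 brighter probes. In a bulk measurement of this kind, fewer cells with a transcript and less transcript per cell cannot be told apart.

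Changes were tested with limma across all probes, with Benjamini-Hochberg adjustment and a threshold of 0.05, on log2 of quantile-normalized intensity. Units below are that normalized intensity, and errors are standard errors (SE) from the fit, with n = 2 arrays per group. The calls rest on all 6 arrays. Without control replicate 1, control replicate 2, higher-dose replicate 1 or higher-dose replicate 2, 0 of the 43 members passed, and without either lower-dose array Atp6v0b and Ctsr passed. For higher dose against lower dose, no call among the members was kept in any fit without 1 array. Each such fit leaves a group with 1 array. Apart from higher dose against control without a lower-dose array, nearly all calls over the whole array were lost too. The loss is thus not particular to the members.

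**Figure D1:**
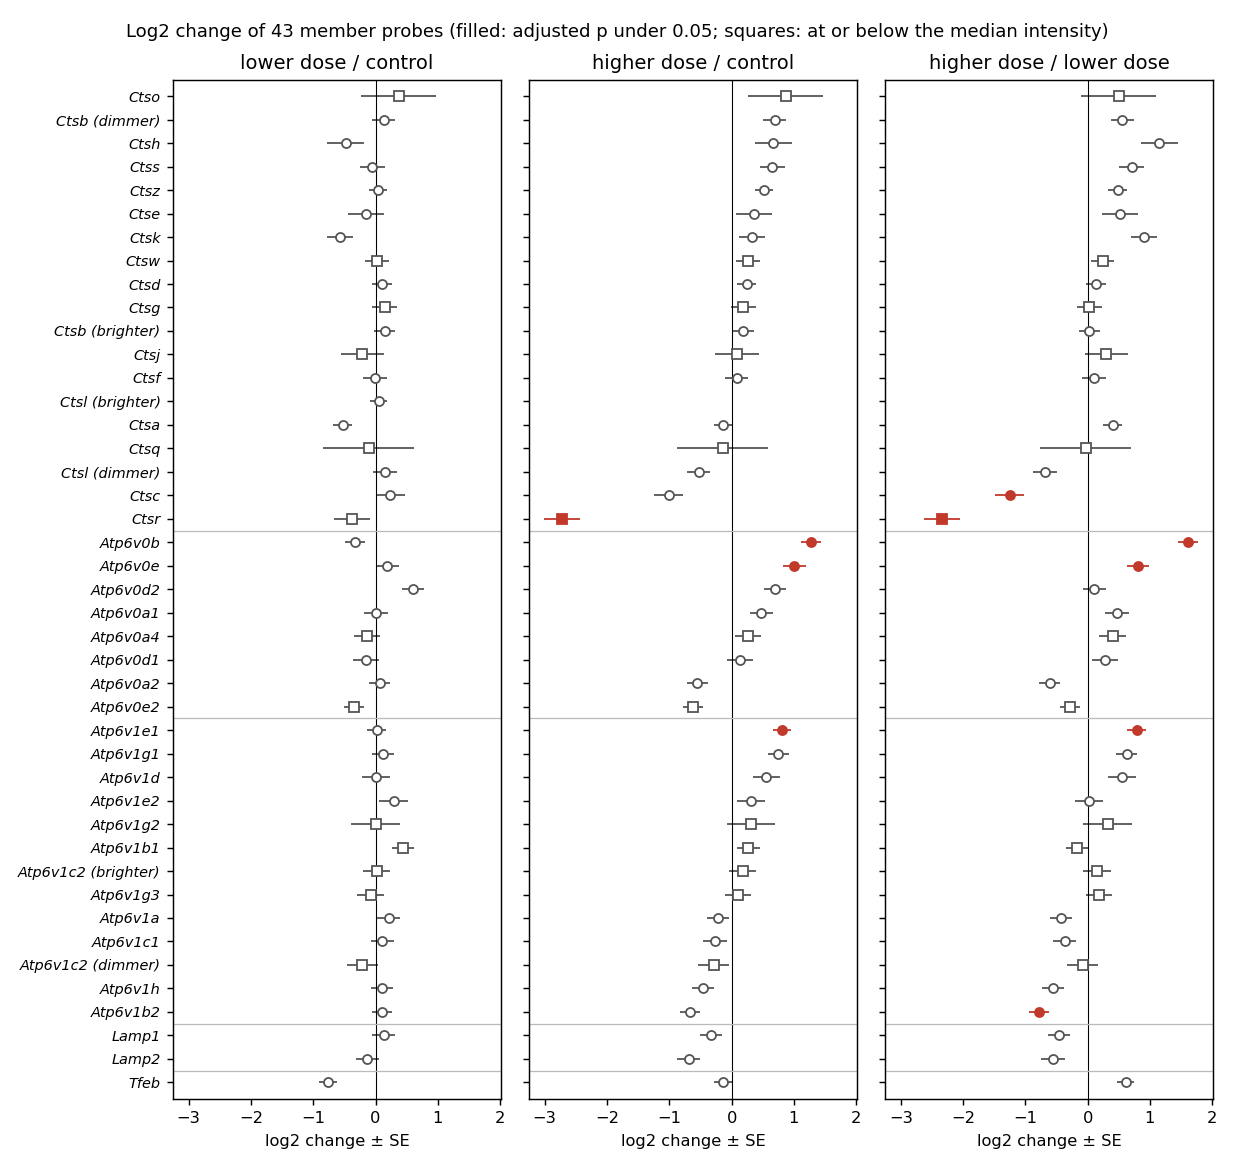
Log2 change with its SE for each of 43 member probes (rows, grouped as cathepsins, V0, V1, LAMPs and Tfeb) in the 3 comparisons. Filled red symbols passed an adjusted p of 0.05, and squares are probes at or below the median intensity. The panel of lower dose over control holds no filled symbol, the panel of higher dose over control holds 4 and the panel of higher over lower dose holds 6. The brighter Ctsl probe, at the top of the scale on the higher-dose arrays, is left out of those 2 panels.

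Atp6v0b encodes c″, one of the ring-forming subunits that carry protons through the membrane. Its probe read 4114 and 4721 units in controls, 3488 and 3534 at the lower dose and 10230 and 11245 at the higher dose. Both higher-dose arrays lay far above the other 4. The log2 change was 1.28 ± 0.16 against control (2.43-fold, adjusted p = 0.0204) and 1.61 ± 0.16 against the lower dose (3.05-fold, adjusted p = 0.018).

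Atp6v0e encodes subunit e, a small membrane protein of V0. It read 17849 and 15029 units in controls, 17112 and 20478 at the lower dose and 34409 and 31475 at the higher dose. Control and lower-dose arrays overlapped, and both higher-dose arrays were above them. The log2 change was 1.01 ± 0.18 against control (2.01-fold, adjusted p = 0.0345) and 0.81 ± 0.18 against the lower dose (1.76-fold, adjusted p = 0.0469).

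The remaining V0 subunits did not pass. The a subunits form the half-channels for protons and differ in where they place the pump. Atp6v0a1 read 2895 and 3825 units in controls, 3388 and 3311 at the lower dose and 4441 and 4848 at the higher dose (log2 0.48 ± 0.19 against control, adjusted p = 0.176). Atp6v0a2 read 2389 and 2082, then 2195 and 2485, then 1629 and 1434 units in the same groups (−0.55 ± 0.17, adjusted p = 0.109). The values of these isoforms thus had opposite signs, with higher-dose arrays apart from controls for each. The a4 isoform, known from kidney, had a dim probe of 85 to 139 units. Tcirg1, which encodes the a3 isoform under another name and so is not a member, stood at −0.24 ± 0.23 (adjusted p = 0.543).

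The d subunit couples the V0 ring to the rotor of V1. Atp6v0d1, the widespread isoform, read 17249 and 15992 units in controls, 13652 and 16338 at the lower dose and 21148 and 15625 at the higher dose, and the groups overlapped (log2 0.13 ± 0.21 for higher dose against control, adjusted p = 0.734). Atp6v0d2, an isoform known from osteoclasts and macrophages, read 824 and 1016 units in controls, 1463 and 1309 at the lower dose and 1447 and 1530 at the higher dose. All 4 treated arrays were above both controls, with log2 changes of 0.60 ± 0.18 at the lower dose (adjusted p = 0.764) and 0.70 ± 0.18 at the higher dose (adjusted p = 0.0677). Atp6v0e2, a second e gene on a dim probe, stood at −0.62 ± 0.16 at the higher dose (adjusted p = 0.0753). Over the 8 V0 probes the median was 0.37 at the higher dose, against −0.01 over all probes. Against control 2 rose and 0 fell, or 25%, where 10.6% of all probes passed. That share rests on 2 probes. Of the 8, 6 lay above the median intensity, and 17% of all probes above it passed.

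In the V1 sector, A and B subunits form the ATP-hydrolysing head, D the central rotor, E and G the outer stalks, and C and H link or regulate the assembly. Atp6v1e1 read 8476 and 9577 units in controls, 9235 and 9071 at the lower dose and 16118 and 15498 at the higher dose. Only the higher-dose arrays stood apart, with a log2 change of 0.81 ± 0.15 against control (1.75-fold, adjusted p = 0.0362) and 0.79 ± 0.15 against the lower dose (adjusted p = 0.034). Its stalk partner Atp6v1g1 read 19660 and 18623 units in controls, 18918 and 22780 at the lower dose and 33391 and 31062 at the higher dose (0.75 ± 0.17 against control, adjusted p = 0.0518). It lay just outside the threshold, with both higher-dose arrays above the other 4. Of 16 alternative fits, 9 left it outside against control and 7 brought it inside.

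Atp6v1b2, the B subunit of most cells, read 17136 and 17694 units in controls, 17366 and 20322 at the lower dose and 11568 and 10415 at the higher dose. It fell against the lower dose (log2 −0.78 ± 0.16, adjusted p = 0.0413) and stood at −0.67 ± 0.16 against control (adjusted p = 0.0638). The call against the lower dose was lost in 10 of 16 alternatives, among them equal medians (−0.45, adjusted p = 0.0883), no normalization (−0.63, adjusted p = 0.0912) and all 6 fits without 1 array. The catalytic subunit gene Atp6v1a read 20943 and 21224 units in controls, 22136 and 26780 at the lower dose and 19382 and 16801 at the higher dose. Its log2 change of −0.22 ± 0.18 against control did not pass (adjusted p = 0.458) and was 0.10 without normalization between arrays and 0.02 with arrays scaled to equal medians.

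Of the other V1 genes on brighter probes, Atp6v1d stood at 0.56 ± 0.22 against control (adjusted p = 0.169), and Atp6v1h (−0.46 ± 0.18, adjusted p = 0.166) and Atp6v1c1 (−0.27 ± 0.19, adjusted p = 0.416) had negative values. Over the 8 brighter V1 probes, 4 values were positive and 4 negative, with a median of 0.04. The positive ones belonged to stalk and rotor genes (E1, E2, G1 and D), and the negative ones to the head subunits A and B2 and to C1 and H, a grouping made after the values were seen. Tissue-restricted isoforms (B1, C2, G2 and G3) had dim probes of 7 to 137 units and values between −0.29 and 0.31. For the 13 V1 probes, 1 rose and 0 fell against control, or 7.69%, where 10.6% of all probes passed. Against the lower dose 1 rose and 1 fell, or 15.4%, where 13.7% of all probes passed. Both shares were close to those of the whole array.

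Among the 19 cathepsin probes, 0 rose and 1 fell at the higher dose against control, or 5.26%, where 10.6% of all probes passed. Of the 19, 6 had an unadjusted p under 0.05, as did 29.1% of all probes. Ctsc encodes the dipeptidyl peptidase that activates serine proteases in granules. It read 6666 and 8981 units in controls, 10131 and 8192 at the lower dose and 3532 and 4173 at the higher dose. The higher-dose arrays were below all others, and the gene fell 2.37-fold against the lower dose (log2 −1.25 ± 0.23, adjusted p = 0.0311). Against control the change was −1.01 ± 0.23 (adjusted p = 0.0535). The call against the lower dose was kept in 7 of 10 alternatives with both arrays of each compared group. It was lost with arrays scaled to equal medians, with replicate number as a block and with only the groups compared.

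Ctsr read 34 and 55 units in controls, 34 and 33 at the lower dose and 8 and 6 at the higher dose. It fell against control (log2 −2.72 ± 0.29, adjusted p = 0.0199) and against the lower dose (−2.34 ± 0.29, adjusted p = 0.0187). All 6 readings were below the median probe, and adding 16 units to every value before taking logs brought the change against control to −1.40. The placental relatives Ctsj and Ctsq were dim as well, at 36 to 74 and 4 to 12 units, with overlapping groups. Ctso read −4 to 3 units on the 6 arrays, so no fold is given for it, although counts and medians over the members hold its fitted value.

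Cathepsins B, L, D, Z and S, proteases of the macrophage lysosome, did not pass. Ctsz read 30992 and 33517 units in controls, 34617 and 31636 at the lower dose and 43956 and 48411 at the higher dose (0.52 ± 0.15 against control, adjusted p = 0.0984). Ctss, which trims the invariant chain of MHC class II, read 25856 and 18730, then 21292 and 21148, then 35550 and 33690 units (0.65 ± 0.20, adjusted p = 0.105). For both genes the higher-dose arrays lay above the other 4. Ctsd stood at 0.24 ± 0.16 (adjusted p = 0.379). Ctsf, at 1874 to 2354 units, had a value of 0.08 ± 0.19 (adjusted p = 0.81), and Ctse, at 129 to 264 units, one of 0.36 ± 0.29 (adjusted p = 0.476). Ctsg and Ctsw, known from neutrophils and from cytotoxic lymphocytes, had dim probes of 78 to 102 and 27 to 36 units and values of 0.19 and 0.26.

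For Ctsb and Ctsl, pairs of probes differed. The brighter Ctsb probe read 44385 and 47760 units in controls, 45886 and 56922 at the lower dose and 52165 and 52557 at the higher dose (0.19 ± 0.17 against control, adjusted p = 0.533). The dimmer one stood at 0.69 ± 0.19 (adjusted p = 0.0824). The brighter Ctsl probe was near the top of the intensity scale on both higher-dose arrays, at 65483 and 65482 deposited units, so no fold is given for it there, although counts and medians over the members hold its fitted value. The dimmer Ctsl probe read 488 and 567 units in controls, 596 and 572 at the lower dose and 324 and 411 at the higher dose (−0.53 ± 0.19 against control, adjusted p = 0.141).

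Several members shared a pattern in which the lower-dose arrays, not the higher-dose ones, were the lowest. Ctsk, a collagen-degrading protease, read 1039 and 873 units in controls, 751 and 551 at the lower dose and 1234 and 1164 at the higher dose. Ctsa, which also protects other lysosomal enzymes, read 714 and 632, then 463 and 468, then 652 and 582 units. Ctsh, an aminopeptidase, read 5892 and 9308, then 5192 and 5465, then 9867 and 14132 units. For all 3, both lower-dose arrays lay under both controls, as they did for 16.7% of all probes. Log2 changes against control were −0.57 ± 0.21 for Ctsk, −0.53 ± 0.16 for Ctsa and −0.48 ± 0.30 for Ctsh, at adjusted p = 0.764, 0.764 and 0.786. Higher dose over lower dose gave 0.90 ± 0.21 for Ctsk (adjusted p = 0.0526), 0.40 ± 0.16 for Ctsa (adjusted p = 0.153) and 1.15 ± 0.30 for Ctsh (adjusted p = 0.0625).

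Tfeb had the same shape. Its probe read 372 and 382 units in controls, 232 and 215 at the lower dose and 339 and 344 at the higher dose, with each pair of arrays close together and no overlap between groups. Before normalization, higher-dose arrays (339 and 312 deposited units) and controls (336 and 381) overlapped. The change at the lower dose had an unadjusted p of 0.00295, the smallest among the members, and did not pass over 26423 probes. Higher over lower dose was 0.61 ± 0.14 (adjusted p = 0.0516), and 0.79 with adjusted p = 0.0253 once the trend with gene span had been removed. It was 0.40 (adjusted p = 0.184) without normalization between arrays and 0.58 (adjusted p = 0.0571) with equal medians. Of 16 alternatives, 11 left it outside the threshold and 5 brought it inside. Against control, the higher-dose value was −0.14 ± 0.14 (adjusted p = 0.571) and 0.02 with that trend removed.

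Lamp1 read 45255 and 44918 units in controls, 43515 and 56200 at the lower dose and 35829 and 36126 at the higher dose. Lamp2 read 53946 and 48793, then 52165 and 41960, then 34856 and 28981 units. Both genes had their lowest normalized readings on the 2 higher-dose arrays. In deposited units, Lamp1 overlapped between the higher dose (42113 and 39946) and controls (40001 and 42247). Deposited Lamp2 at the higher dose (40369 and 31802) lay below controls (48147 and 44337) and overlapped the lower dose (51060 and 40164). Neither passed: against control the log2 changes were −0.33 ± 0.18 for Lamp1 (adjusted p = 0.307) and −0.69 ± 0.19 for Lamp2 (adjusted p = 0.0855). Lamp1 stood at −0.00 without normalization between arrays. Lamp2 ranged from −0.82 to −0.37 against control over 16 alternatives.

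**Figure D2:**
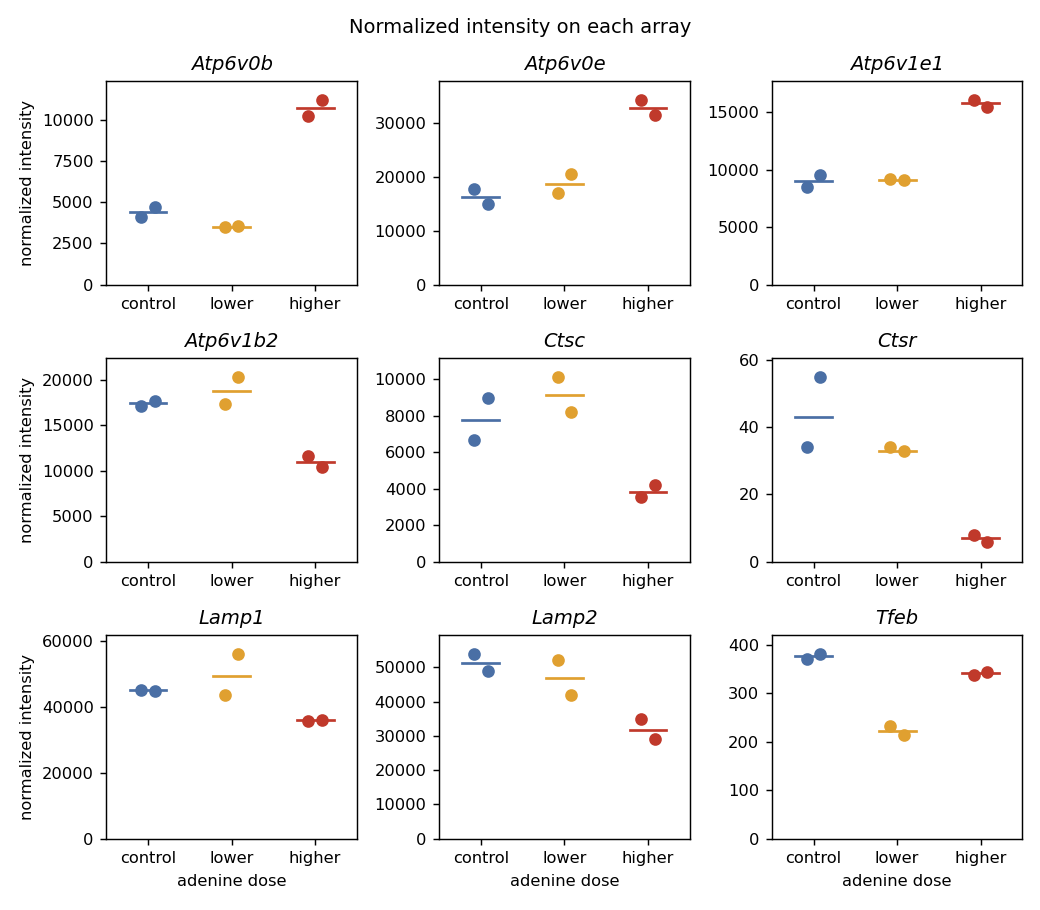
Quantile-normalized intensity (vertical axis, linear, from 0, scaled for each gene) of 9 members on each of 6 arrays by adenine dose. Points are arrays and lines are group means of the log2 values. Atp6v0b, Atp6v0e and Atp6v1e1 stand higher on both higher-dose arrays, Atp6v1b2, Ctsc, Ctsr, Lamp1 and Lamp2 lower, and Tfeb is lowest on the lower-dose arrays, at 232 and 215 units.

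At the lower dose, 0 of the 43 members passed against control in limma. At an unadjusted p under 0.05, 4 differed (Tfeb, Atp6v0d2, Ctsa and Ctsk), or 9.3% of members, against 6.36% of all probes. Over the whole array 3 probes passed, or 0.0114% (0.00757% higher and 0.00378% lower). Treated and control arrays did not overlap for 12 members, 4 higher and 8 lower, where 35.2% of all probes did not overlap (18.5% higher and 16.7% lower). The members' median log2 change was 0.02, and values ran from −0.76 to 0.60. Of the 8 brighter V1 probes, all 8 values were positive, at 0.01 to 0.29, and those of Atp6v1b2, Atp6v1e1 and Atp6v1g1 turned negative with arrays scaled to equal medians.

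Set against the lower dose, the higher dose had 3 members up and 3 down, or 14% of 43, against 13.7% of all probes (6.78% up and 6.95% down). Of the 30 brighter members 5 passed, or 16.7%, against 21.9% of the brighter probes. All 6 calls were lost in each fit without 1 array and in the fit of only these groups, as were nearly all calls over the whole array. At an unadjusted p under 0.05 there were 19 members, where the whole array had 32.1%. The arrays did not overlap for 27 members, 16 up and 11 down, where 28.6% of all probes were up and 30.8% down, together 59.4%. The higher ones were Atp6v0b, Atp6v0e and Atp6v1e1, and the lower ones Atp6v1b2, Ctsc and Ctsr. This comparison shares its higher-dose arrays with the one against control, so the recurrence of 4 genes is not a second measurement.

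The changes at the higher dose ran with gene length on the genome. Over the 28 member genes above the median intensity, the log2 change correlated with gene span at Spearman's rho = −0.421, and over all 10269 such genes at −0.326, both across genes that share the same arrays. Without Ctsl, at the top of the scale, it was −0.448 over 27 genes, a check added after seeing the data. Atp6v0b has the shortest span of the 28, at 3 kb, and Atp6v0a2 the longest, at 95.4 kb. After each array's trend with span was removed, Atp6v0b stood at 1.11 (adjusted p = 0.0181), Atp6v0e at 1.07 (adjusted p = 0.0265) and Atp6v1e1 at 0.913 (adjusted p = 0.024). The part of span in the remaining values was not tested further.

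**Figure D3:**
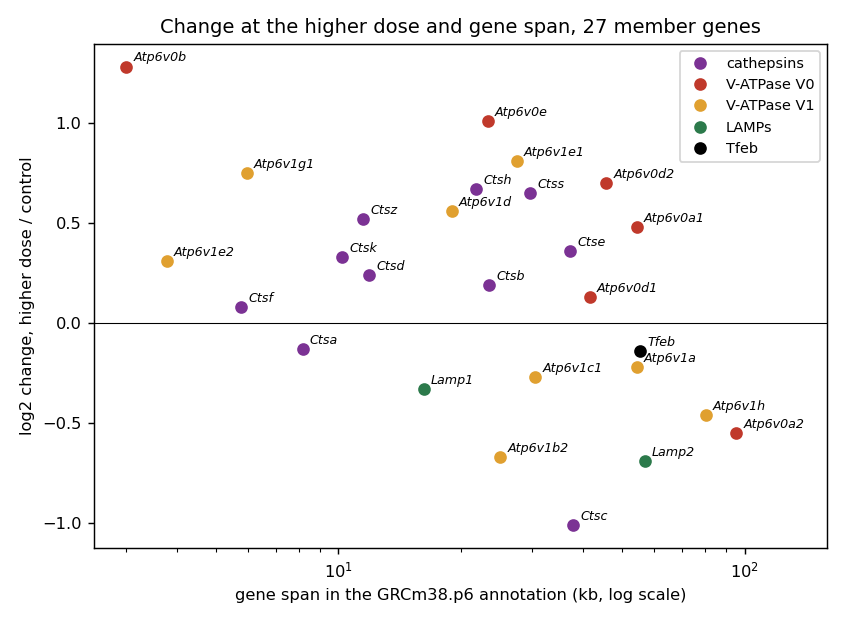
Log2 change at the higher dose against control (vertical axis) and gene span in kb (horizontal axis, log scale) for 27 member genes above the median intensity (Ctsl left out), coloured by group. Shorter genes such as Atp6v0b (3 kb) tend to sit above 0 and longer ones such as Atp6v0a2 (95.4 kb) below it, with rho = −0.448.

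Changes of members with and without the promoter letters overlapped. The 9 genes with CACGTG had a median log2 change of 0.08 at the higher dose and ranged from −0.33 (Lamp1) to 1.28 (Atp6v0b), the genes with 4 and 2 copies of the core in the stretches shown above. Among the 10 brighter members with an entry and no core, the median was 0.41 and the range −1.01 to 0.81. At the lower dose the medians were 0.05 and 0.01. Membership of these sets was described only, with no test.

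Other lysosomal and autophagy genes were read in lists drawn up from general knowledge. Of 35 other lysosomal hydrolases and activators, 7 rose and 4 fell at the higher dose against control, or 31.4%, where 11.8% of all named genes passed. Of the 35, 33 lay above the median intensity, where 17% of all probes passed. Against the lower dose 15.2% of named genes passed. The list's median log2 change against control was −0.07, against −0.02 over all named genes. Ppt1, a depalmitoylating enzyme, rose 2.5-fold (1.32 ± 0.17, adjusted p = 0.0206). Smpd1, the acid sphingomyelinase, fell 2.27-fold (−1.18 ± 0.15, adjusted p = 0.0204), and the β-galactosidase gene Glb1 fell 2.16-fold (−1.11 ± 0.15, adjusted p = 0.0215).

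Of 32 other lysosomal membrane proteins and carriers, 4 rose and 3 fell, or 21.9%, against 11.8% of all named genes. The list's median was −0.14. Of the 32, 26 lay above the median intensity, and 17% of all probes above it passed. The tetraspanin Cd63 read 122 and 170 units in controls, 182 and 134 at the lower dose and 523 and 580 at the higher dose (3.83-fold against control, 1.94 ± 0.25, adjusted p = 0.0207). The cholesterol exporter Npc1 (1.55 ± 0.17, adjusted p = 0.0199) and Tmem192 (1.42 ± 0.20, adjusted p = 0.0231) also rose.

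Of 11 cystatins and other protease inhibitors, 4 rose and 0 fell, or 36.4%, against 11.8% of all named genes. The list's median was 0.63, against −0.02 over all named genes. Of the 11, 8 lay above the median intensity, and 17% of all probes above it passed. Cstb, the cytosolic inhibitor stefin B, read 16519 and 19815 units in controls, 25005 and 20625 at the lower dose and 43515 and 42406 at the higher dose. It rose 2.37-fold against control (1.25 ± 0.18, adjusted p = 0.0248). Serpinb6a (1.11 ± 0.19, adjusted p = 0.0322) rose too, as did Slpi, a secreted inhibitor of serine proteases (2.71 ± 0.24, adjusted p = 0.0185), and Cst7, a cystatin of immune cells named here as the fourth (1.02 ± 0.19, adjusted p = 0.0352).

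Genes that assemble, feed or regulate lysosomes went both ways. Of 13 V-ATPase accessory and assembly genes, 1 rose (Rnasek, 1.68 ± 0.28, adjusted p = 0.03) and 1 fell (Dmxl1, −1.38 ± 0.24, adjusted p = 0.0319), together 15.4%. Rogdi stood at 0.76 ± 0.19 (adjusted p = 0.0652). Of 24 MiT/TFE factors and genes of their mTORC1 regulation, 1 rose (Lamtor2 of the Ragulator scaffold, 1.37 ± 0.20, adjusted p = 0.0243) and 2 fell. Those 2 encode subunits of calcineurin, the phosphatase known to activate TFEB: Ppp3ca at −1.20 ± 0.24 (adjusted p = 0.0427) and Ppp3r1 at −1.10 ± 0.23 (adjusted p = 0.0459). Ppp3cb, another calcineurin gene of this list, stood at −0.23 ± 0.19 (adjusted p = 0.47). The share called in the list, 12.5%, was close to the 11.8% of all named genes.

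Of 21 genes for sorting to lysosomes, 1 rose and 3 fell, or 19%, against 11.8% of all named genes. Of the 21, 20 lay above the median intensity, where 17% of all probes passed. The 3 that fell were Vps16 of the HOPS tethering complex (−1.20 ± 0.17, adjusted p = 0.0236) and Vps35 (−0.93 ± 0.16, adjusted p = 0.0311) and Vps26a (−0.95 ± 0.20, adjusted p = 0.0456) of the retromer. Vps29, also a retromer gene, had a positive value of 0.88 ± 0.24 (adjusted p = 0.0764). Of 25 autophagy genes, 2 rose and 2 fell, or 16%. The ATG8 homologues Gabarap (1.19 ± 0.14, adjusted p = 0.0204) and Map1lc3a (1.30 ± 0.22, adjusted p = 0.0294) rose, and the receptor gene Optn fell (−1.10 ± 0.20, adjusted p = 0.0365). At the lower dose against control, 0 genes of these 7 lists passed in limma, with 9 at an unadjusted p under 0.05.

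**Figure D4:**
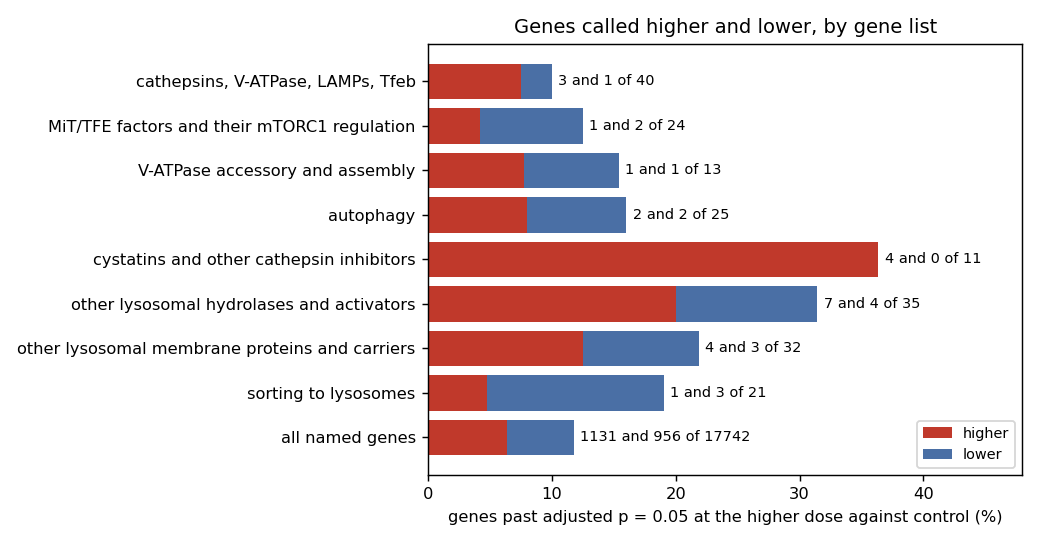
Share of genes past an adjusted p of 0.05 at the higher dose against control (horizontal axis, percent), higher in red and lower in blue, for the 40 member genes, 7 lists of other lysosomal and autophagy genes, and all 17742 named genes. The members, with 3 higher and 1 lower, are near the share of all named genes, and the inhibitor list, with 4 higher and 0 lower, has the longest bar. Lists are not matched for intensity, and 17% of all probes above the median intensity passed.

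Markers of other cell types were read beside these changes. Of the 35 measured markers of cells other than microglia and macrophages, 0 passed at the higher dose against control in limma, with 10 at an unadjusted p under 0.05. Of the 12 microglia and macrophage markers, 4 rose and 0 fell (Aif1, Fcer1g, Itgam and Fcgr3), or 33.3% against 11.8% of all named genes, with a median of 0.50. Of the 12, 11 lay above the median intensity, where 17% of all probes passed. Of the other 8, 5 had negative values: Adgre1 (−0.49), Tmem119 (−0.49), Csf1r (−0.48), Ptprc (−0.14) and Cx3cr1 (−0.13). Their part in the changes of lysosomal genes was not tested.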

How the data were processed

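Cy5-labelled cDNA from BV2 RNA was hybridised to Phalanx mouse OneArray arrays, per the labels' protocols. Each deposited value is a linear intensity of 1 spot; some lie below 0, as after background subtraction. The submitters' processing notes name RMA, yet the deposited intensity medians differ between arrays, so the arrays were treated as not normalized. Not given in the sources used here: scanner, background method and detection flags.

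The 6 arrays were quantile-normalized, values under 1 set to 1 and log2 taken. One mean per group was fitted with limma 3.58.1 (R 4.3.3; lmFit and eBayes, 3 residual degrees of freedom, two-sided, Benjamini-Hochberg over 26423 probes) and tested on simulated data. Precision is limited by the number of arrays. Symbols came from the platform annotation, updated by exact match (18213 probes) or a unique synonym (2126) in RefSeq's GRCm38.p6 table; 38 were kept and 6046 probes are unnamed here. The brightest probe on average stood for a gene. Figures used matplotlib 3.10.9.

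Members, lists and tests were chosen with earlier results of these data known. The rule for named genes took Tfeb, Lamp1, Lamp2, each member called in a comparison, the 3 brightest genes of each group and 3 genes per other list by p. Other members were named after their values were seen. Alternatives were other normalizations, log transforms, dim-probe filters, priors, weights, blocks, thresholds, sample sets and probe summaries.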

Additional observations from a re-analysis of the deposited data

How the results depend on the processing

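Counts of members called moved with the processing more than directions did. At the higher dose against control the count of 4 was 7 without normalization between arrays, 11 with log2(value + 16), 15 of 30 with testing limited to the brighter probes, 11 of 38 above the 25th percentile of intensity, 13 with an intensity trend in the prior, 8 with array weights, 2 with only the groups compared, 0 with the replicate block, and 0 and 12 at adjusted p thresholds of 0.01 and 0.10. Leaving out 1 array gave 0 to 2. The count of genes, 4, was 7 when each gene's probes were averaged. Against the lower dose the count of 6 was 10, 13, 19 of 30, 13 of 38 and 16 with no normalization, log2(value + 16), brighter probes, the 25th percentile and the trended prior, 0 with only the groups compared, 2 with the replicate block, 10 with the span trend removed, 0 and 14 at the other thresholds, and 0 in each fit without 1 array. The count of genes, 6, was 10 with the mean of probes. At the lower dose it was 0 throughout. Between doses, the count over all probes of 3629 was 4092 without normalization, 5645 with log2(value + 16) and 6163 with the brighter probes. It was 5730 above the 25th percentile of intensity, 5762 with the trended prior and 3228 with the span trend removed. With the replicate block it was 1395, and with only the groups compared 7. Over all probes, the count of 2803 at the higher dose was 2138 to 5524 under those alternatives that kept 6 arrays and the threshold, apart from 11 with the replicate block. It was 1584 without either lower-dose array or both of them, and 14, 5, 6 and 28 without control 1, control 2, higher-dose 1 and higher-dose 2. Titles number the replicates alike in each group. Deviations of same-numbered arrays correlated at 0.0326 (control and lower dose), 0.313 (control and higher dose) and −0.226 (lower and higher dose). Whether equal numbers mark a shared culture or batch cannot be told from these values. The 4 calls against control were among those without normalization, with equal medians, with log2(value + 16), with the trended prior, with array weights and with the span trend removed.

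Of 954 values for 60 changes of named members under alternatives, 795 kept direction and side of the threshold, 75 lost and 66 gained a call, and 18 changed sign, none of them in a called change. With equal medians, lower dose against control gave −0.02 for Atp6v1b2, −0.08 for Atp6v1e1, −0.03 for Atp6v1g1, −0.11 for Ctsl, −0.14 for Ctsz and −0.03 for Lamp1, and higher dose against control gave 0.02 for Atp6v1a (0.10 without normalization). With the span trend removed, Tfeb gave 0.02 at the higher dose against control. Fits without 1 array crossed 0 at the higher dose against control for Atp6v0d1 (−0.09 to 0.35). At the lower dose they did so for Atp6v1e1 (−0.07 to 0.11), Atp6v1g1 (−0.02 to 0.25), Ctsl (−0.01 to 0.11), Ctsz (−0.03 to 0.10), Lamp1 (−0.05 to 0.32) and Lamp2 (−0.29 to 0.02), and between doses for Ctsb (−0.12 to 0.19). Ctsl was left out of comparisons with the higher dose, where its probe was at the top of the scale. Without normalization, the median of all probes was 0.22 at the lower dose and −0.25 between doses. The causes were not tested. Signal over background limits Ctsr, Ctso, Ctsq and the other dim members.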
